A study of Homo sapiens with 6 samples.

Results

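Semaphorins, netrins and slits are guidance ligands, secreted or anchored in the membrane, that were first studied as signals steering growing axons and migrating cells. Semaphorins signal through plexins, with neuropilins as co-receptors for most class 3 semaphorins. Netrins bind DCC, neogenin (NEO1) and the UNC5 receptors, and slits bind ROBO receptors. In epithelia the same families are known for roles in cell contacts, migration and survival, and DCC and the UNC5 proteins are described as dependence receptors, which can trigger cell death when netrin is absent. The genes described here are the 48 protein-coding genes of the deposited table whose symbols belong to semaphorin classes 3 to 7, plexins A to D, neuropilins, slits, ROBO receptors, the secreted netrins, the UNC5 receptors, DCC and NEO1. They are 48 of 58735 named genes. They were picked by symbol, but the families were proposed with earlier results of the same libraries in view.

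Poly(A) RNA was sequenced from LS174T cells, which the labels give as goblet-like cells of a human colorectal adenocarcinoma. All 6 libraries shared the cell line, an input of about 2000000 cells and the kit used to make the library. The groups were 3 wild-type libraries and 3 libraries labelled as FXYD3 knockout, with no treatment or time named for either group. The labels describe neither the edit nor the number of knockout clones, and nothing in them ties replicates to separate cultures. The p-values therefore reflect the spread among the 6 libraries, which may be technical. FXYD3 itself had 54, 91 and 55 reads in wild type and 79, 131 and 85 reads in the libraries labelled knockout. Its log2 fold change was 0.54 (SE 0.20, adjusted p = 0.0522), so the transcript was not lower in the knockout-labelled libraries. The directions below are therefore differences between labelled libraries.

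Named genes received 15417232 to 19453217 counts in a library, and the 48 guidance genes together received 20656 to 28132. Logarithms of CPM (counts scaled to the size of each library) correlated at 0.994 to 0.996 within groups and at 0.977 to 0.980 between them. The summed CPM of 8 colon epithelium markers was 9955 to 11243 in the wild-type libraries and 10888 to 11636 in the knockout-labelled libraries, with CDH1 lower (log2 fold change -0.36, adjusted p = 0.0013) and LGALS4 higher (0.22, adjusted p = 0.0082). Of 7 tested goblet cell markers 6 were lower, with a summed CPM over the 8 listed of 714 to 889 against 519 to 575. Of the endothelial markers PECAM1, KDR and TIE1 were at 0 in all 6 libraries, and the 6 listed summed to at most 0.231 CPM in a wild-type library and 0.417 CPM in a knockout-labelled one. Of the neuronal markers SNAP25, STMN2, ELAVL4 and GAP43 were at 0, MAP2 was higher, and the 8 listed summed to 4.45 to 6.41 CPM against 7.63 to 9.82 CPM. SYT1, which was not called (adjusted p = 0.0697), held most of this sum at 3.76 to 5.23 CPM against 5.47 to 6.79 CPM. Fibroblast markers summed to 0.393 to 0.869 CPM against 5.48 to 7.11 CPM, with COL1A2 and PDGFRA at 0 and COL3A1 the 1 of 7 that was tested and higher. Both tested enteroendocrine markers, CHGA and TPH1, were higher, with CHGB, NEUROD1 and GCG at 0 and sums over the 6 listed of 0.807 to 0.926 CPM against 1.79 to 2.86 CPM. Of the leukocyte markers PTPRC and CD3E were at 0, CD14 was lower (log2 fold change -3.24, adjusted p = 6.7e-08), and the 6 listed summed to 34.1 to 38.6 CPM against 32.6 to 33.8 CPM. LYZ, which was not called (log2 fold change 0.04, adjusted p = 0.789), held most of this sum at 31.0 to 33.7 CPM against 32.3 to 33.3 CPM. The part of these differences in the guidance genes' values was not tested, and in bulk RNA fewer cells that express a gene and less RNA per cell cannot be told apart.

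The guidance genes changed in both directions. SEMA5A, a membrane semaphorin that can attract or repel axons, rose 5.33-fold. The netrin receptor UNC5B was 5.07-fold lower, and PLXND1, SEMA3G and SEMA4C fell by 2-fold or more. The secreted semaphorins SEMA3C and SEMA3F and the class A plexins PLXNA1 and PLXNA3 rose by less than 2-fold, and the class 4 semaphorins SEMA4B, SEMA4D and SEMA4G fell by less than 2-fold. Of the 48 genes 28 had enough counts to be tested, and 18 of them passed edgeR's quasi-likelihood test at an adjusted p under 0.05 (9 higher and 9 lower in the libraries labelled knockout). That is 64.3% of those tested, beside 24.3% of all 15351 tested genes and 27% of the tested protein-coding genes. By direction, 12% of all tested genes were called higher and 12.4% lower. The median absolute log2 fold change was 0.47 for the 28 genes and 0.17 for all tested genes, at median levels of 28.6 CPM and 23.9 CPM. The median level of the tested protein-coding genes was 34.9 CPM. Since these genes were proposed with earlier results of the same libraries in view, the shares are a description with no test.

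Among the called genes 7 moved by at least 1 on the log2 scale (2 higher and 5 lower), where 6.1% of all tested genes were called at that size. The wild-type and knockout-labelled CPM values did not overlap for 22 of the 28 genes, beside 37.2% of all tested genes, with the knockout-labelled libraries above in 12 and below in 10. NRP1, SEMA3B, SEMA6C and PLXNC1 were the 4 of these 22 that were not called. The signed median over the 28 genes was 0.13, and it was 0.00 over all tested genes. For 12 of the 18 called genes the call held in each of the 16 alternative settings that tested them, and the other 6 are named with their limits below.

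**Figure D1:**
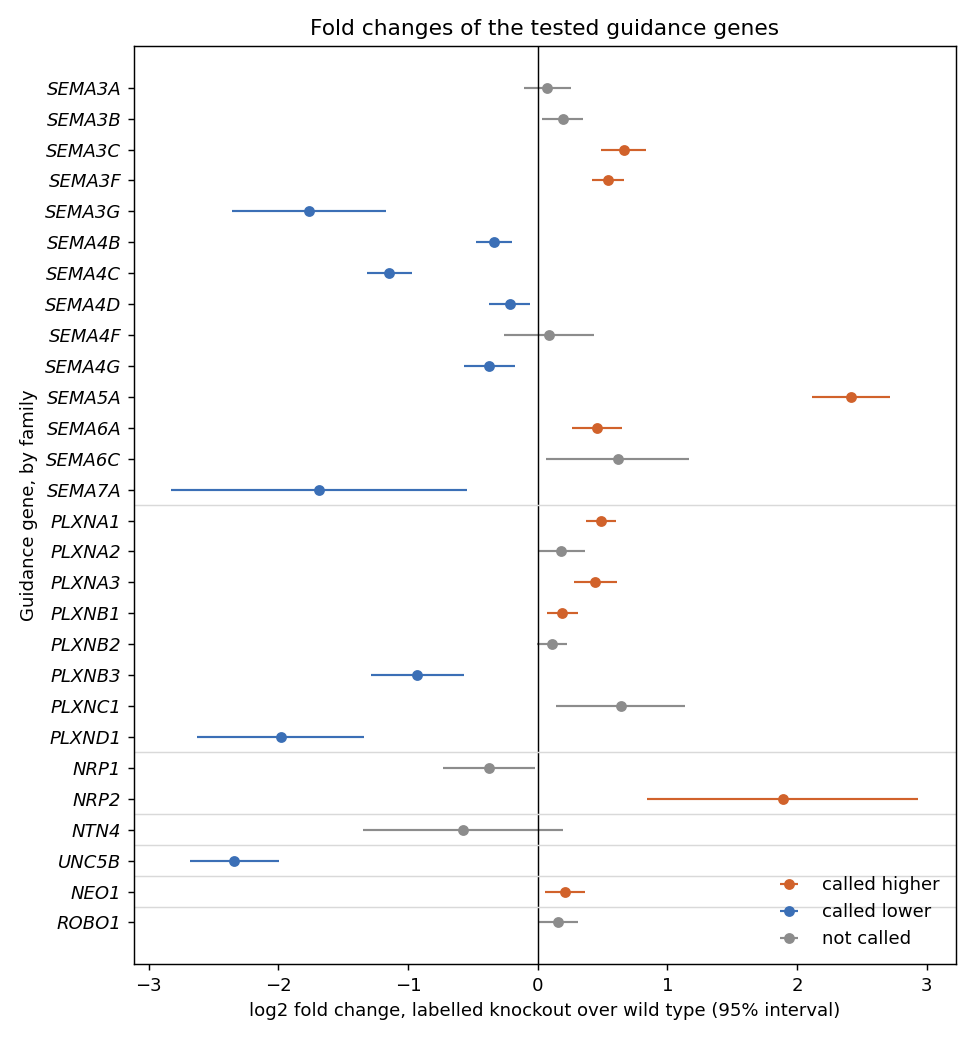
Log2 fold change of the 28 tested guidance genes, libraries labelled knockout over wild type (x axis), by family, with 95% confidence intervals from edgeR as bars. The points run from -2.34 for UNC5B to 2.41 for SEMA5A, with called genes on both sides of 0.

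Promoter sequences are shown for the genes on which the largest changes rest, those called with a change of at least 1 on the log2 scale and kept in every setting. There were 5 such genes, and RefSeq (GRCh38.p14) sequence was matched for SEMA5A, PLXND1, SEMA4C and SEMA3G. Each line gives the 250 bases before the RefSeq start, read 5′ to 3′ on the gene's own strand, which is the minus strand for all 4. Capitals mark the GC box, GGGCGG on either strand (CCGCCC on the other), with overlapping matches joined. The windows lie at chr5:9546076-9546325 for SEMA5A, chr3:129606677-129606926 for PLXND1, chr2:96870081-96870330 for SEMA4C and chr3:52445104-52445353 for SEMA3G.
SEMA5A: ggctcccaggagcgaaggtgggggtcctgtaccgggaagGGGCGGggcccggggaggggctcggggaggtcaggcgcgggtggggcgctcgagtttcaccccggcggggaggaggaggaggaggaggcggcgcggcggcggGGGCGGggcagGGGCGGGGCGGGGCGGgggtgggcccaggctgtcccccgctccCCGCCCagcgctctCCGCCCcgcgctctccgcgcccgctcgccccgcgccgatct
PLXND1: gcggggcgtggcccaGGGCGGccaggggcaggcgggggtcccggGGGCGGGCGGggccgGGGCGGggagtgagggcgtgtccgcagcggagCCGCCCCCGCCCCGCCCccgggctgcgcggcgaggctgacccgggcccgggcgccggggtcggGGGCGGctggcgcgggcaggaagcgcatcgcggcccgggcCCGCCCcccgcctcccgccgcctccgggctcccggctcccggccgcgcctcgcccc
SEMA4C: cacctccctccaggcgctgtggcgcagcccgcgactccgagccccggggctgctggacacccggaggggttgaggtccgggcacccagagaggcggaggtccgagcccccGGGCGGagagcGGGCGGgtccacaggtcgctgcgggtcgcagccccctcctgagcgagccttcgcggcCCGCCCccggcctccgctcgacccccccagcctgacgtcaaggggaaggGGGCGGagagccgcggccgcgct
SEMA3G: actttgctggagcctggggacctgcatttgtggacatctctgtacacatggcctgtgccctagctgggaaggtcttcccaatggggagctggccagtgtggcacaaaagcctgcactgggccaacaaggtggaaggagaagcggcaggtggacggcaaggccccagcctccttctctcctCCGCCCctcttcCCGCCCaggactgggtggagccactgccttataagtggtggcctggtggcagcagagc

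The SEMA5A window held 33 CpG dinucleotides and 7 GC boxes at 82% G and C, and the PLXND1 window held 41 CpG and 9 GC boxes at 88.8%. The SEMA4C window held 30 CpG and 4 GC boxes at 78%. SEMA3G stood apart with 4 CpG and 2 GC boxes at 62%. Over 35116 RefSeq promoter windows of the same length the median was 11 CpG and 58% G and C, and 42.6% held at least 1 GC box. As many CpG as in PLXND1 were found in 1.7% of windows, as many as in SEMA5A in 8.1%, as many as in SEMA4C in 12.4% and as many as in SEMA3G in 70.7%. None of the 4 windows held the letters TATAAA (10.7% of windows), CACGTG (6.3%) or ACGTG (18.5%, and contained in CACGTG) on either strand. The window of SEMA5A, which rose, and those of PLXND1 and SEMA4C, which fell, were all above the median CpG count, and that of SEMA3G, which fell, was below it. The RefSeq start lay at the deposited gene's 5′ end for SEMA5A and 18 bases outside it for SEMA3G. For PLXND1 and SEMA4C it lay 142 and 677 bases inside the deposited gene. The SEMA4C window therefore lay wholly within the gene as counted, and the PLXND1 window partly.

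Among the secreted class 3 semaphorins, SEMA3F was the most abundant semaphorin per length in every library. It encodes a ligand that acts through NRP2 and class A plexins and is known as a repellent of migrating and vascular cells. SEMA3F was at 92.0, 96.4 and 101 CPM in the wild-type libraries and at 133, 142 and 146 CPM in the knockout-labelled libraries. The groups did not overlap, and its log2 fold change was 0.54 (SE 0.06, adjusted p = 7.3e-08). SEMA3C, a ligand of neuropilins and plexins that promotes as well as repels migration, was at 30.7, 34.7 and 31.9 CPM in wild type and at 55.6, 45.1 and 53.7 CPM in the other group. All 3 knockout-labelled libraries were above the highest wild-type library, with a log2 fold change of 0.66 (SE 0.09, adjusted p = 8.6e-07).

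SEMA3G moved the other way. This gene (ENSG00000010319, chr3:52433053-52445085, minus strand) encodes a class 3 ligand best known from vessels. It was at 4.22, 4.66 and 3.48 CPM in wild type against 1.94, 0.921 and 0.834 CPM in the libraries labelled knockout. The first knockout-labelled library was above the other 2 of its group and still below all wild-type libraries. The log2 fold change was -1.77 (SE 0.29, adjusted p = 3.4e-05). SEMA3B, a ligand first described as a candidate tumour suppressor on chromosome 3, was not called. Its values were 37.9, 40.3 and 42.9 CPM against 47.1, 45.9 and 45.4 CPM, and the log2 fold change was 0.19 (95% confidence interval 0.04 to 0.35, adjusted p = 0.0662). SEMA3B was called higher in 4 of the 16 alternative settings, namely normalization by the upper quartile or by total counts, protein-coding genes alone, and without the third wild-type library. SEMA3A, the founding repellent ligand of NRP1, had a log2 fold change of 0.07 (adjusted p = 0.605) with overlapping groups. SEMA3F and SEMA3B are neighbours on chromosome 3, where 78483 bases separate the end of SEMA3F from the start of SEMA3B, and SEMA3F was called while SEMA3B was not. The ratio of SEMA3F to SEMA3B in TPM (counts scaled to gene length and library size) was 2.85 ± 0.0484 (SD, n = 3) in wild type and 3.64 ± 0.247 (SD, n = 3) in the other group, with no overlap. An exact two-sided permutation test gave p = 0.1, the smallest value that 3 against 3 libraries allow.

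Class 4 semaphorins are membrane-bound ligands, several of which bind class B plexins. Of the 5 tested 4 were lower and none was higher, beside 12.4% and 12% of all tested genes. The calls of SEMA4G and SEMA4D did not hold in every setting. SEMA4C (ENSG00000168758, chr2:96859716-96870757, minus strand), a ligand of PLXNB2, was at 49.2, 56.5 and 51.6 CPM in wild type and at 21.7, 25.4 and 23.8 CPM in the libraries labelled knockout. The groups were far apart against their own spread, and the log2 fold change was -1.15 (SE 0.08, adjusted p = 2.6e-11). SEMA4B was at 72.8, 74.9 and 75.6 CPM against 57.1, 61.9 and 57.6 CPM, a log2 fold change of -0.34 (SE 0.07, adjusted p = 3.7e-04). SEMA4G was at 32.8, 34.3 and 28.1 CPM against 21.5, 26.0 and 25.9 CPM.

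For both SEMA4B and SEMA4G the groups did not overlap. SEMA4G had a log2 fold change of -0.37 (SE 0.10, adjusted p = 0.00441). Without the first knockout-labelled library its value was -0.29 and the adjusted p was 0.0522, so the call rested on that library. The exons of SEMA4G share 22.3% of their bases with MRPL43 on the opposite strand, and the strand setting of the counting is not given, so reads there cannot be assigned to 1 of these genes. MRPL43 itself had a log2 fold change of -0.13 (adjusted p = 0.282). SEMA4D, the ligand of PLXNB1 and of CD72 on immune cells, was at 37.3, 38.8 and 36.3 CPM against 32.1, 33.3 and 31.3 CPM. The log2 fold change of SEMA4D was -0.22 (SE 0.08, adjusted p = 0.0435), and it missed the threshold in 10 of the 16 alternative settings, including 5 of the 6 that left out 1 library (each but the third wild-type library). SEMA4F was not called, with overlapping groups and a log2 fold change of 0.08 (adjusted p = 0.768).

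The summed TPM of class 4 was 93.4 ± 7.74 (SD, n = 3) in wild type and 66.8 ± 3.99 (SD, n = 3) in the knockout-labelled libraries, while class 3 summed to 114.9 ± 6.75 and 159.9 ± 6.05 (SD, n = 3 each). These sums are given without a test. Of all semaphorin TPM, SEMA3F held 29.4% ± 1.04 in wild type and 39.2% ± 1.01 in the other group, and SEMA4C held 12.5% ± 0.505 and 5.18% ± 0.364 (SD, n = 3 each). SEMA4B went from 15.7% ± 0.328 to 11.3% ± 0.578, and SEMA3C from 7.62% ± 0.262 to 11.1% ± 1.28. The ratio of SEMA4C to SEMA4B, both class 4 and both lower, was 0.801 ± 0.0496 against 0.457 ± 0.0208 (SD, n = 3 each, exact two-sided permutation p = 0.1, the smallest possible).

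**Figure D2:**
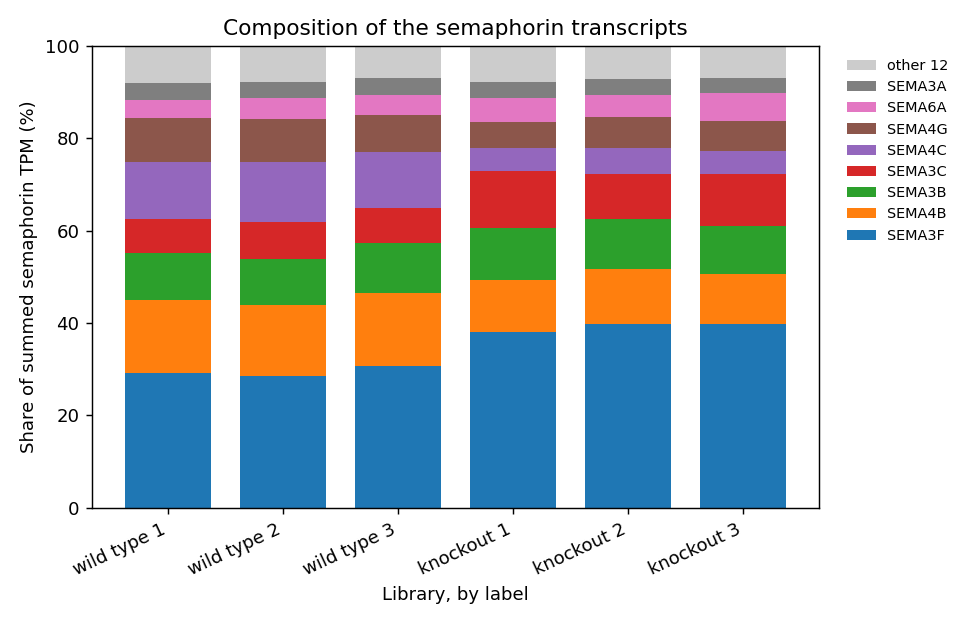
Share of summed semaphorin TPM held by each semaphorin (y axis, percent) in the 3 wild-type and 3 knockout-labelled libraries (x axis). SEMA3F takes 29.4% on average in wild type and 39.2% in the knockout-labelled libraries, while SEMA4C goes from 12.5% to 5.18%.

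Among the transmembrane semaphorins of classes 5 and 6, SEMA5A showed the largest rise of the 28 genes. SEMA5A (ENSG00000112902, chr5:9035026-9546075 of GRCh38, minus strand) is a ligand with thrombospondin repeats that has PLXNB3 as a described receptor. It was at 2.66, 3.32 and 2.73 CPM in wild type and at 14.6, 15.7 and 16.3 CPM in the libraries labelled knockout, from 44 to 59 counts against 226 to 307 counts. The knockout-labelled libraries lay close together and far above the highest wild-type library, with a log2 fold change of 2.41 (SE 0.15, 95% confidence interval 2.11 to 2.72, adjusted p = 5.4e-13). SEMA6A, a transmembrane ligand of class A plexins, was at 27.9, 34.6 and 32.4 CPM against 41.4, 39.5 and 49.6 CPM. Its groups did not overlap, and its log2 fold change was 0.46 (SE 0.09, adjusted p = 6.3e-04). SEMA6C had a log2 fold change of 0.62 (95% confidence interval 0.06 to 1.17, adjusted p = 0.101) at 1.74 to 1.99 CPM in wild type and 2.15 to 3.56 CPM in the other group, and was not called.

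SEMA7A, the GPI-anchored semaphorin known from immune cells and axon growth, lay near the count minimum. It received 21, 14 and 11 counts in wild type and 9, 2 and 3 counts in the libraries labelled knockout. The groups did not overlap, and the log2 fold change was -1.69 (SE 0.55, adjusted p = 0.0264). Without the first knockout-labelled library it was -2.64, and the call was lost without the first wild-type library (adjusted p = 0.164) and without the second or the third knockout-labelled library (0.156 and 0.117). DESeq2 did not call SEMA7A either (adjusted p = 0.126).

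The netrins and slits were low. NTN4, a secreted netrin that binds laminin, was the 1 netrin tested, at 23, 21 and 33 counts against 14, 13 and 25 counts. Its groups overlapped and it was not called (log2 fold change -0.58, 95% confidence interval -1.35 to 0.19, adjusted p = 0.293). NTN1, the classical ligand of DCC and UNC5 receptors, received 6 counts over the wild-type libraries and 9 over the others, which is too few for a comparison. NTN3 received 11 and 5 counts and NTN5 21 and 29. SLIT2 was at 0 in all 6 libraries, SLIT3 received 3 counts in each group, and SLIT1 received 1, 4 and 3 counts against 6, 7 and 6 and was below the filter.

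Plexins carried most of the receptor RNA. PLXNB2, the receptor of SEMA4C, was the most abundant guidance gene per length in both groups, at 187 ± 12.8 TPM and 207 ± 12.1 TPM (SD, n = 3 each). In CPM it was at 407, 433 and 417 against 429, 455 and 471, with overlapping groups and a log2 fold change of 0.11 (95% confidence interval -0.01 to 0.23, adjusted p = 0.181). PLXNB1, the receptor of SEMA4D, was at 113, 121 and 110 CPM against 129, 130 and 133 CPM. Its groups did not overlap, with a log2 fold change of 0.19 (SE 0.06, adjusted p = 0.0189), and the call was lost in 4 of the 6 fits without 1 library (the first or the third wild-type, the second or the third knockout-labelled; adjusted p 0.0523 to 0.109).

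PLXNB3, a described receptor of SEMA5A, fell where SEMA5A rose. Other possible receptors of SEMA5A were not considered here. PLXNB3 was at 6.13, 6.86 and 7.51 CPM in wild type and at 3.68, 3.22 and 3.87 CPM in the libraries labelled knockout, a log2 fold change of -0.93 (SE 0.17, adjusted p = 1.97e-04). The ratio of SEMA5A to PLXNB3 in TPM was 0.251, 0.280 and 0.211 in wild type and 2.30, 2.82 and 2.43 in the other group, 10.2-fold apart. In CPM the knockout-labelled libraries all lay above wild type for SEMA5A and below it for PLXNB3. The ratios therefore could not overlap, and the exact two-sided permutation test could give only p = 0.1, the smallest possible. The ratio adds no support to the 2 calls. The exons of PLXNB3 share 20.4% of their bases with SRPK3 on the same strand. SRPK3 had a log2 fold change of 0.45 (adjusted p = 0.366), opposite in sign to that of PLXNB3.

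Class A plexins carry class 3 semaphorin signals together with neuropilins and bind class 6 semaphorins directly. Of their 3 tested genes 2 were higher and none was lower, beside 12% and 12.4% of all tested genes. PLXNA1 was at 127, 140 and 136 CPM in wild type and at 183, 185 and 195 CPM in the libraries labelled knockout, a log2 fold change of 0.49 (SE 0.06, adjusted p = 2.0e-07). PLXNA3 was at 32.2, 34.1 and 31.8 CPM against 41.4, 43.1 and 49.0 CPM, a log2 fold change of 0.44 (SE 0.08, adjusted p = 1.5e-04). Neither gene's groups overlapped. PLXNA2 was not called (log2 fold change 0.18, adjusted p = 0.147, overlapping groups), and PLXNA4 received 4 counts in all. Class A plexins summed to 55.2 ± 3.61 TPM and 77.2 ± 4.78 TPM, and the share of plexin TPM held by PLXNA1 was 13.9% ± 0.339 against 17.2% ± 0.253, while that of PLXNB2 was 65.6% ± 0.0988 against 62.4% ± 0.544 (SD, n = 3 each).

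PLXND1 (ENSG00000004399, chr3:129555175-129606818, minus strand), a receptor of SEMA3E and SEMA4A that is best known from vessel patterning, was low and fell further. It was at 2.72, 2.64 and 3.66 CPM in wild type and at 0.776, 0.716 and 0.775 CPM in the libraries labelled knockout, from 47 to 59 counts against 12 to 14. The groups were far apart, with a log2 fold change of -1.98 (SE 0.31, adjusted p = 2.0e-05). SEMA3E and SEMA4A were scarce, with 8 counts in all for SEMA3E and 15 against 3 counts for SEMA4A. Other possible ligands of PLXND1 were not considered here. PLXNC1, the receptor of SEMA7A, was not called at 1.79, 2.25 and 2.11 CPM against 2.97, 3.17 and 3.46 CPM (log2 fold change 0.64, adjusted p = 0.0544). It was called under normalization by the upper quartile or by total counts and among protein-coding genes alone. The exons of PLXNC1 share 2.2% of their bases with AC073655.2 and 1.8% with CEP83, both on the opposite strand. AC073655.2 was higher (log2 fold change 2.32, adjusted p = 3.7e-04), and CEP83 was not called (0.17, adjusted p = 0.218). With the strand setting unknown, reads in the shared bases cannot be assigned to 1 of these genes.

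The neuropilins, co-receptors with short cytoplasmic tails, were low. NRP1 was at 5.67, 5.51 and 6.21 CPM in wild type and at 3.81, 4.91 and 4.59 CPM in the libraries labelled knockout. The groups did not overlap, yet NRP1 was not called (log2 fold change -0.38, 95% confidence interval -0.73 to -0.02, adjusted p = 0.120). NRP2, the preferred co-receptor of SEMA3F, received 10, 2 and 6 counts against 11, 39 and 20 counts, with a log2 fold change of 1.89 (SE 0.51, adjusted p = 0.00706). The first libraries of both groups differed by 1 count in raw counts, and the second knockout-labelled library was the highest. Without that library the log2 fold change was 1.42 and the adjusted p was 0.104, so the call rested on it. The ratio of NRP2 to NRP1 in TPM was 0.0504 ± 0.0338 against 0.236 ± 0.0928 (SD, n = 3 each).

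**Figure D3:**
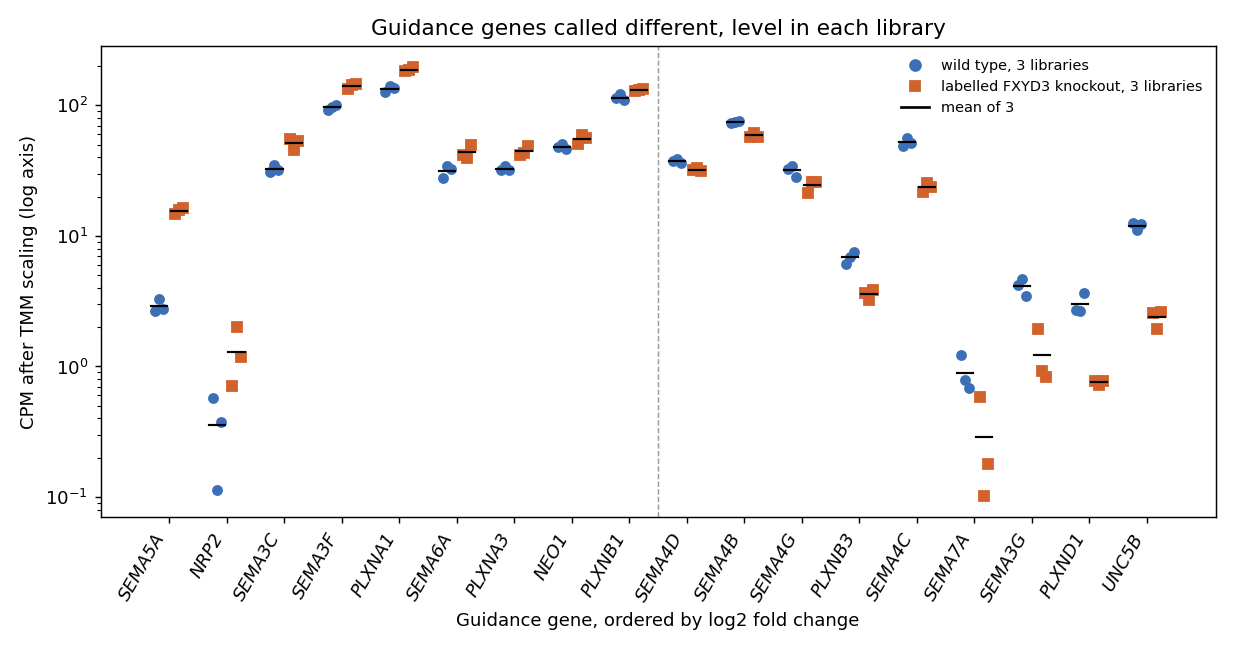
CPM of each of the 18 called guidance genes in the 3 wild-type and 3 knockout-labelled libraries (log axis), 1 point for each library. SEMA5A lies at 2.66 to 3.32 CPM in wild type and 14.6 to 16.3 CPM in the knockout-labelled libraries, and UNC5B at 11.2 to 12.5 CPM and 1.94 to 2.62 CPM.

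Among the netrin receptors, UNC5B showed the largest fall of the 28 genes. UNC5B (ENSG00000107731, chr10:71212570-71302864 of GRCh38, plus strand) is a repulsive netrin receptor and dependence receptor that is also known as a target of p53. It was at 12.5, 11.2 and 12.4 CPM in wild type and at 2.59, 1.94 and 2.62 CPM in the libraries labelled knockout, from 199 to 216 counts against 38 to 44. Its groups were narrow and far apart, with a log2 fold change of -2.34 (SE 0.17, adjusted p = 1.3e-11). UNC5A received 6 counts in wild type and 3 in the other group, UNC5D received 2 in all, and UNC5C was at 0 in all 6 libraries, so UNC5B was the 1 UNC5 gene with enough counts to test. DCC received 1 count in all.

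NEO1, which encodes neogenin, a receptor of netrins and of the repulsive guidance molecules, was at 47.6, 50.2 and 46.2 CPM against 50.8, 59.0 and 56.3 CPM. The lowest knockout-labelled library lay just above the highest wild-type library. NEO1's log2 fold change was 0.21 (SE 0.08, adjusted p = 0.0439), and it missed the threshold in 7 of the 16 alternative settings, including DESeq2 (0.122) and the fits without the first or the third wild-type library (0.145 and 0.126) or the second or the third knockout-labelled library (0.207 and 0.129). The ratio of UNC5B to NEO1 in TPM was 0.298 ± 0.0291 in wild type and 0.0516 ± 0.0111 in the other group (SD, n = 3 each). In CPM the knockout-labelled libraries all lay below wild type for UNC5B and above it for NEO1. The exact two-sided permutation test of this ratio could therefore give only p = 0.1, the smallest possible, and adds no support. ROBO1, the slit receptor with the highest level, was at 50.7, 46.8 and 43.2 CPM against 52.7, 49.8 and 54.2 CPM with overlapping groups (log2 fold change 0.16, adjusted p = 0.148). ROBO2 received 6 counts in all, ROBO3 received 3, and ROBO4 was at 0.

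Compared per length, receptors and ligands were led by a few genes. After PLXNB2 came SEMA3F at 64.8 TPM in wild type and 96.7 TPM in the libraries labelled knockout, PLXNA1 at 39.8 and 57.1, PLXNB1 at 38.3 and 44.7, and SEMA4B at 34.5 and 27.9. The order of these 5 genes was the same in both groups, but within wild type PLXNA1 and PLXNB1 differed by less than the SD of either (3.21 and 3.53). Lower in the order SEMA4C went from rank 6 of 28 to rank 12, SEMA3C from 10 to 6, UNC5B from 17 to 22 and SEMA5A from 25 to 17. Among the 16 genes most abundant per length 11 were called, and SEMA4C was the 1 of them that moved by at least 1 on the log2 scale. Among the other 12 genes 7 were called, 6 of them at that size. Of all tested genes 24.3% were called, and 6.1% were called at that size. The cut at 16 genes was set by hand, between PLXNA2 at 6.92 TPM and UNC5B at 3.42 TPM over all libraries. With this cut the larger changes were mostly in genes at lower levels, where counts are fewer.

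**Figure D4:**
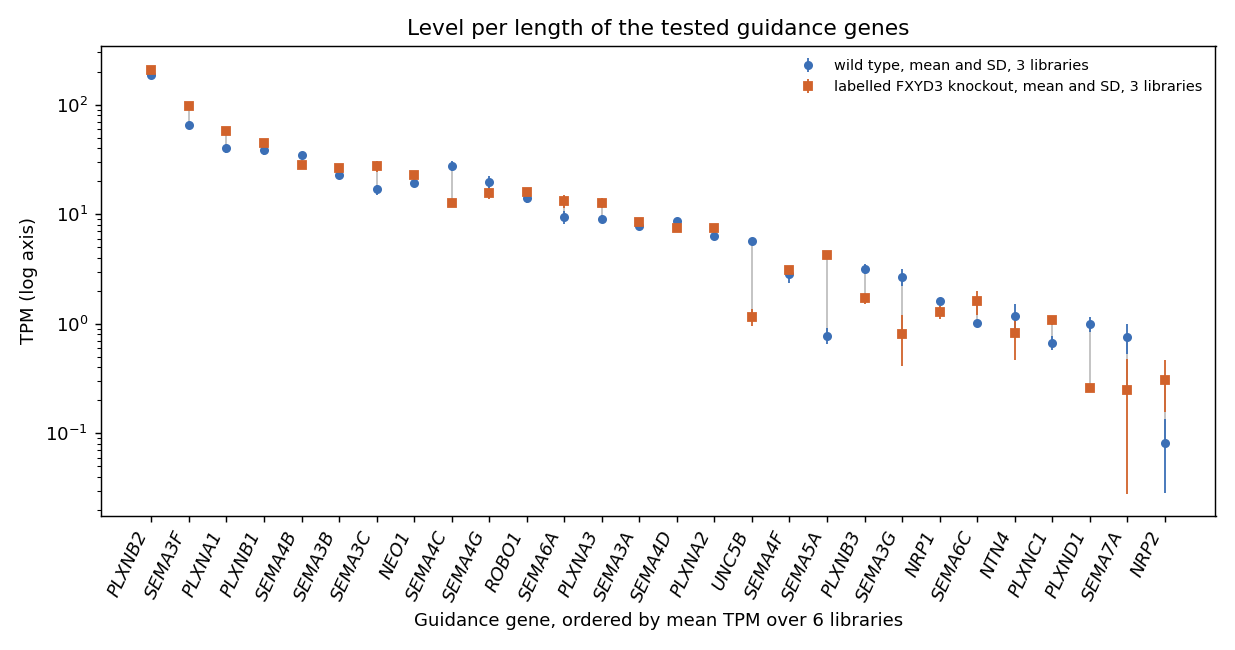
Mean TPM of the 28 tested guidance genes (log axis) in the wild-type and the knockout-labelled libraries, with SD bars over 3 libraries, ordered by level. PLXNB2 leads at 187 and 207 TPM, and NRP2 is lowest over all libraries at 0.0816 and 0.311 TPM.

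The 20 genes that were not tested had 0 to 50 counts over all 6 libraries. SEMA5B, SEMA6D, SLIT2, UNC5C and ROBO4 were at 0 in every library, which allows up to 3 counts in 103142520, or 0.0291 CPM. SEMA6B, a transmembrane semaphorin, received 1, 0 and 0 counts in wild type and 8, 7 and 2 counts in the libraries labelled knockout. Fitted without the filter on low counts, SEMA6B was called higher (log2 fold change 3.64, SE 1.31, adjusted p = 0.0438), a value that rests on 18 counts in all. SEMA4A received 3, 9 and 3 counts against 0, 0 and 3 counts and was not called there (adjusted p = 0.247). These genes cannot be called absent at this depth.

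The genes that act with the guidance receptors were read from lists of 81 partners. Of these 65 were tested, 9 called higher, 8 called lower and 48 not called, where 24.3% of all tested genes were called. The partner lists as a whole were thus called about as often as all tested genes. Of 28 tested partners of plexins and neuropilins 4 were higher and 5 lower, beside the 12% and 12.4% of all tested genes. MRAS, a small GTPase of the Ras family that plexins can act on, was at 2.95, 2.70 and 3.85 CPM in wild type and at 0.194, 0.358 and 0.119 CPM in the libraries labelled knockout (log2 fold change -3.73, SE 0.41, adjusted p = 5.4e-08). FYN, a kinase downstream of plexin A receptors, was at 12.7, 15.5 and 15.6 CPM against 3.30, 5.83 and 4.29 CPM (log2 fold change -1.68, adjusted p = 1.1e-08). RND1, a small GTPase that binds plexins, had a log2 fold change of -1.07 (adjusted p = 1.5e-06), and the kinase FES one of -0.42 (adjusted p = 0.0215). The collapsin response mediator DPYSL3 rose from 0.289, 0.337 and 0.745 CPM to 1.87, 1.28 and 1.79 CPM (log2 fold change 1.84, adjusted p = 0.00168). The semaphorin-binding integrin subunit ITGA1 rose by 0.69 on the log2 scale (adjusted p = 6.2e-06), and the actin-oxidizing enzymes MICAL2 and MICAL1 by 0.46 (8.5e-05) and 0.38 (0.00516).

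Among 18 tested slit and ROBO partners 4 were higher and none lower, beside the 12% and 12.4% of all tested genes. SRGAP1, a GTPase-activating protein that binds ROBO1, was at 10.4 ± 0.706 CPM (SD, n = 3) in wild type and at 18.7, 19.5 and 19.7 CPM in the other group (log2 fold change 0.89, adjusted p = 3.0e-07). SRGAP3 had a log2 fold change of 0.38 (adjusted p = 0.0028), the exchange factor SOS1 one of 0.25 (0.032), and the heparan sulfate carrier GPC1, which binds slits, one of 0.19 (0.0163). Among 19 tested netrin receptor partners 1 was higher and 3 lower, beside the same shares. RGMB, a repulsive guidance molecule that binds neogenin, was at 84.7, 88.8 and 79.5 CPM in wild type and at 46.0, 45.6 and 48.5 CPM in the libraries labelled knockout (log2 fold change -0.85, adjusted p = 2.1e-10). Opposite-strand transcripts cover part of the exons of RGMB, AC008522.1 40.2% of the bases and RGMB-AS1 (log2 fold change -0.57, adjusted p = 2.8e-04) 5.4%. Of the integrin subunits in this list, ITGA3 had a log2 fold change of 0.56 (adjusted p = 1.3e-08) and ITGA6 one of -0.19 (adjusted p = 0.0314). ITGB4 of the same list was not called (0.01, adjusted p = 0.918). Nor was ITGB1 of the plexin and neuropilin list (-0.09, adjusted p = 0.254). The number of partners called higher was 15 without the second wild-type library, and the number called lower was 5 without the first knockout-labelled library. Calls over all tested genes moved as well, from 3735 in the main fit to 4590 and 3004 in these fits.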

How the data were processed

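The authors deposited 1 table of read counts per gene for 3 wild-type and 3 knockout-labelled libraries of LS174T cells, whole numbers with no normalization. Per the submitters' processing notes the tools were HISAT2 2.0.5 and featureCounts 1.5.0-p3. The notes list the mouse build mm10, but the table's identifiers are human and its coordinates are those of GENCODE 29 on GRCh38. The sources used here give neither the strand setting nor the handling of multiply matching reads. Groups came from the genotype labels, and columns were matched by library name.

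The 232 rows without a gene name (0.130 to 0.250% of counts) were left out. Counts were tested with edgeR 4.0.16 (R 4.3.3; TMM, filterByExpr with a minimum count of 10, robust quasi-likelihood test, two-sided, Benjamini-Hochberg over all 15351 tested genes, called at an adjusted p under 0.05), and every adjusted p printed is from it unless DESeq2 (1.42.0) is named. CPM use the TMM-scaled library sizes. TPM were computed from the deposited gene length, the union of a gene's exons. No 2 libraries of a group differed by as little as sampling noise. Floors cover counting error only, and no molecular identifiers mark reads copied from 1 molecule. Intervals come from the edgeR fit and include the spread among libraries, which may be technical. Depth per library was 15417232 to 19453217 counts. The test was checked on simulated counts. The members, the partner lists, the marker lists and the naming rules (every called member, the most abundant member not called in each family, and up to 4 called partners in each direction of a list by smallest p) were chosen with earlier results of these data known. Alternatives were 16: 3 scalings, 2 filters, DESeq2, limma voom (limma 3.58.1), protein-coding genes alone, a fit without robust estimation, a replicate block, and each library left out. Some genes that the naming rule selects are not reported here.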

Additional observations from a re-analysis of the deposited data

How the results depend on the processing

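Under the 16 alternatives the number of guidance genes called higher lay between 6 and 11 and the number called lower between 7 and 9, beside 9 and 9. No called guidance gene changed sign, and SEMA4F, which was not called, changed sign in 1 setting. With a replicate block, 7 guidance genes were called higher and 8 lower, and of the partner genes 7 were called higher and 5 lower, beside 9 and 8. Over all tested genes 2953 were called with the block, beside 3735 in the main fit. NEO1 (adjusted p = 0.0877), PLXNB1 (0.0630) and SEMA4D (0.0873) were not called by edgeR with the replicate block, which changed no other call of a guidance gene. The labels do not say that a replicate number pairs libraries, and deviations of same-numbered libraries correlated at 0.03, -0.12 and -0.15, so the numbers were not taken as pairs. Not every library correlated best with its own number. Leaving out 1 library in turn gave 7 to 15 partner genes called higher and 5 to 9 called lower, and 6 to 9 guidance genes called higher and 7 to 9 called lower. In the same fits 2711 to 4590 of all tested genes were called, so the counts moved across the whole table. The cause was not tested. Depth limits NRP2, SEMA7A and the 20 untested genes, whose values rest on few counts, and NRP2 and SEMA7A were not tested under a filter of 1 CPM in 3 libraries. The scalings moved the median of all genes by at most 0.025 on the log2 scale.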

Other observations

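Genes with related names or domains, chosen after the values of the guidance genes were seen, included 2 that passed edgeR's quasi-likelihood test, PLXDC2 and LRIG1. DCBLD1, DCBLD2, LRIG3, SLITRK6 and UNC5CL were tested and not called. As 24.3% of all tested genes were called, the 2 calls are no result about related genes as a group. PLXDC2, a membrane protein with a plexin-like domain, was at 21.9, 25.6 and 23.3 CPM in wild type and at 33.0, 26.6 and 32.2 CPM in the libraries labelled knockout (log2 fold change 0.37, adjusted p = 0.00489), with no overlap. DCBLD1 and DCBLD2, membrane proteins with neuropilin-like domains, had log2 fold changes of 0.05 and 0.11 (adjusted p = 0.720 and 0.334). LRIG1, a membrane protein with leucine-rich repeats, as slits have, was at 73.5, 76.9 and 81.0 CPM against 61.9, 63.6 and 58.9 CPM (log2 fold change -0.33, adjusted p = 6.2e-04), also with no overlap. LRIG3 and SLITRK6, which carry such repeats too, had log2 fold changes of 0.02 and 0.30 (adjusted p = 0.878 and 0.574). UNC5CL, which shares the intracellular domains of the UNC5 receptors, had one of 0.25 (adjusted p = 0.517) with overlapping groups, beside the -2.34 of UNC5B. PLXDC1 received 39 counts in all, and the membrane-anchored netrins NTNG1 and NTNG2 received 0 and 4.

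The antisense transcripts named after semaphorins were not called. SEMA3F-AS1 had a log2 fold change of 0.29 (adjusted p = 0.632), SEMA6A-AS1 one of 0.56 (adjusted p = 0.268) and SEMA3B-AS1 one of 0.01 (adjusted p = 0.990), each on 42 to 79 counts in a group.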
